A study of Mus musculus with 3 samples.

Results

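Expression of 9 genes of cellular iron handling was followed across 3 RNA-seq libraries of mouse primary pre-osteoclasts, the mononuclear cells that fuse into bone-resorbing osteoclasts. The genes were picked by symbol, with earlier results of these data known: Tfrc (uptake), Slc11a1 and Slc11a2 (transport across vesicle membranes), Fth1 and Ftl1 (storage), Ncoa4 (release from storage), Slc40a1 (export), and Ireb2 and Fbxl5 (sensing). All 9 of 9 were found among the 24067 genes of the deposited table, and all 9 had a mean of at least 1 FPKM (fragments per kilobase, a length-corrected share of each library), as did 10358 genes in all. The libraries were sheared cells with Ift88 shRNA (genotype labelled Ift88 knockdown), sheared cells with control shRNA (labelled WT) and static cells with control shRNA (labelled WT), with 1 library each. All cells had been given MCSF and RANKL for 2 days, and the sheared dishes were then exposed to orbital shear stress, swirling fluid flow, for 24 hours. Per the series' design text, knockdown came before differentiation. No static culture carrying the Ift88 hairpin was analysed here, and hairpin effects that need flow cannot be told apart from those that do not. The labels name the tissue as bone and the cells as primary, with donor age, sex and strain not given.

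Cells take up iron bound to transferrin through the transferrin receptor, move it from endosomes into the cytosol, and either use it, store it inside ferritin shells built of heavy and light chains, or export it through ferroportin. Iron regulatory proteins bind hairpins called iron-responsive elements when iron is scarce. Binding blocks translation of ferritin and ferroportin mRNAs and protects Tfrc mRNA from decay. One form of Slc11a2 mRNA is also known to carry such an element in its 3′ UTR. Osteoclasts are known to raise transferrin-dependent uptake as they mature and build mitochondria, and macrophages, which share their lineage, are known for storing and recycling iron.

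The elements that define this circuit are shown first because those of Tfrc lie in the 3′ UTR and those of ferritin and ferroportin in the 5′ UTR. Transcripts linked to the deposited RefSeq IDs were searched in GENCODE M21 (GRCm38) on the transcript strand for a bulged C, 5 stem bases, the loop CAGTGN, and 5 bases that pair with the stem, G with T allowed. Elements that depart from this pattern would be missed, in Tfrc as in the other genes, so the sites need not be the full set. The 3 sites in a 5′ UTR and 4 in a 3′ UTR are printed as 27 bases of DNA letters, 5′ to 3′, with the loop in capitals.
Fth1, 5′ UTR, chr19:9982733-9982759, plus strand: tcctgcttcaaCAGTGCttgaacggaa
Ftl1, 5′ UTR, chr7:45459780-45459806, minus strand: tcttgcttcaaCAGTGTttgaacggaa
Slc40a1, 5′ UTR, chr1:45925466-45925492, minus strand: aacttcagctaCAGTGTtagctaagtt
Tfrc, 3′ UTR, chr16:32631220-32631246, plus strand: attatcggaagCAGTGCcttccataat
Tfrc, 3′ UTR, chr16:32631599-32631625, plus strand: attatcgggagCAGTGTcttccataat
Tfrc, 3′ UTR, chr16:32631664-32631690, plus strand: tatatcggagaCAGTGAtctccatatg
Tfrc, 3′ UTR, chr16:32631711-32631737, plus strand: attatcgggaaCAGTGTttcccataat
The pattern was present in the 5′ UTR of 3 of the 9 genes and the 3′ UTR of 1, against 0.103% and 0.527% of the 20481 genes searched. These mRNAs were already known to carry such elements, so the shares show how rare the pattern is and test nothing. No match was found in Slc11a1, Slc11a2, Ncoa4, Ireb2 or Fbxl5, which says only that these letters with a fully paired stem are not in the transcripts searched.

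Sequencing depth was nearly even, with an estimated 35153784, 35188956 and 34786601 fragments in the Ift88 shRNA, sheared control and static libraries. The targeted gene Ift88, needed to build the primary cilium, was at 1.197 FPKM in the sheared Ift88 shRNA library, 2.71 in the sheared control and 2.98 in the static library, in the direction of its label. Because each group is 1 library, no test was possible, no p-value is given, and no difference below has a replicate check. Bracketed intervals are 95% counting intervals from estimated fragments and leave out variation between cultures. In bulk RNA, fewer cells of a type and less RNA per cell cannot be told apart.

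Ferritin dominated the group by level. Fth1, whose product oxidises iron for storage (gene ID 14319, chromosome 19, 9980600 to 9985111), was at 22274 FPKM with Ift88 shRNA, 25298 in the sheared control and 24483 in the static library. Ftl1, whose product helps to form the iron core (gene ID 14325, chromosome 7, 45457944 to 45459886), was at 18175, 18230 and 17833 FPKM in the same libraries. By mean FPKM they ranked 2 and 3 of all genes, behind the lysozyme gene Lyz2. Together they made up 7.63% of the summed FPKM in the Ift88 shRNA library, 8.03% in the sheared control and 7.91% in the static library.

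After ferritin the order by mean FPKM was Slc11a1 (166.5), Ncoa4 (95.2), Tfrc (57.5), Slc11a2 (56.3), Slc40a1 (41.2), Fbxl5 (12.9) and Ireb2 (10.3). Ftl1 stood 109-fold above Slc11a1. The ranges over the 3 libraries overlapped for 1 neighbouring pair, Tfrc and Slc11a2, and every other neighbouring pair kept its order in each library. The genes differed in how far they ranged, with the highest library 1.397 times the lowest for Tfrc, 1.347 for Ncoa4 and 1.196 for Slc40a1, against 1.011 for Slc11a1 and 1.022 for Ftl1.

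**Figure D1:**
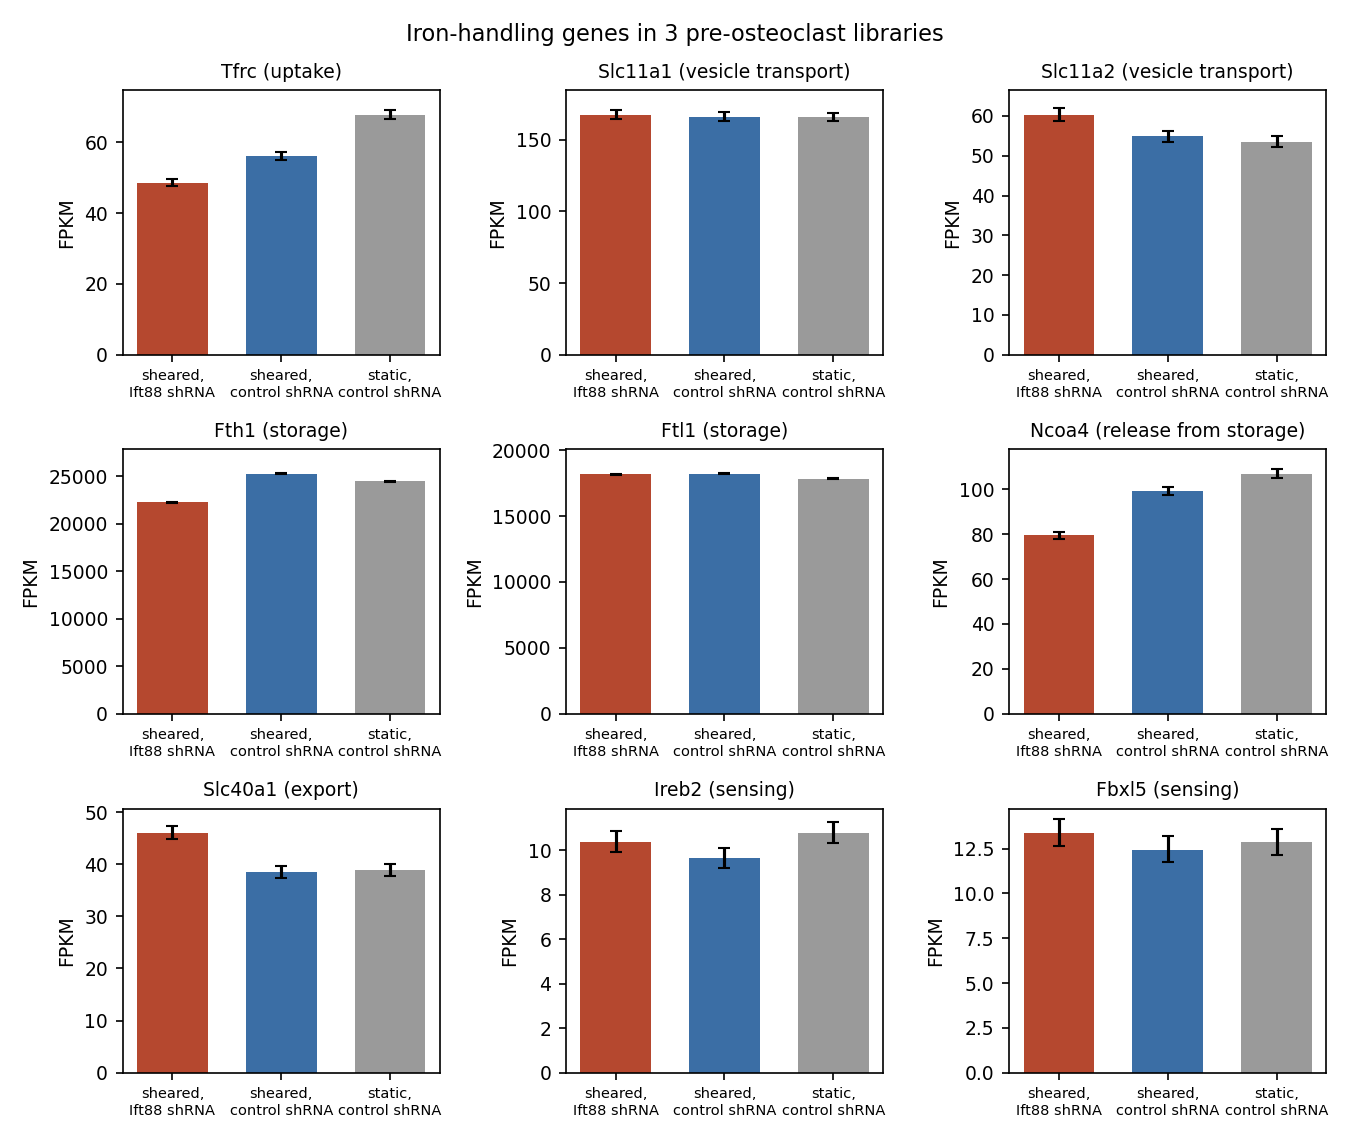
FPKM (vertical axes, each from 0) of the 9 iron-handling genes in the sheared Ift88 shRNA, sheared control shRNA and static control shRNA libraries, 1 library per bar, with 95% exact Poisson counting intervals from estimated fragments. Tfrc and Ncoa4 are lowest with Ift88 shRNA (48.5 and 79.5 FPKM) and highest in static cells (67.8 and 107 FPKM), Slc40a1 is highest with Ift88 shRNA (46.1 FPKM), and Slc11a1 and Ftl1 are nearly level.

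The shear comparison asked how pre-osteoclasts with control shRNA responded to fluid flow. Tfrc, the receptor for iron-loaded transferrin (gene ID 22042, chromosome 16, 32608896 to 32632794), was the member with the largest difference, lower in the sheared library at 56.2 FPKM against 67.8 in the static one. The ratio was 0.829 (0.806 to 0.852), resting on an estimated 9294 and 11086 fragments. On the log2(FPKM + 1) scale the difference was -0.27, and 2.18% of the genes kept were lower still. Ireb2, which encodes the iron regulatory protein IRP2 (gene ID 64602, chromosome 9, 54862658 to 54912534), was at 9.65 FPKM in sheared and 10.8 in static cells, a ratio of 0.893 (0.839 to 0.951). Ncoa4, the cargo receptor that carries ferritin to lysosomes (gene ID 27057, chromosome 14, 32159879 to 32179855), had 99.1 FPKM in sheared and 107 in static cells, a ratio of 0.926 (0.902 to 0.951).

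Tfrc and Ireb2 have the longest transcripts of the group, at 4890 and 5770 bases, and the lowest GC content, at 39.8% and 39.0%. When each ratio was centred on genes of like length and GC content, the log2 difference of Tfrc was -0.18, that of Ireb2 -0.06 and that of Ncoa4 -0.06. The part of length and base composition in these differences was not tested further.

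The storage and transport genes lay close together in the sheared and static libraries. Fth1 stood at 1.033 times the static level (1.030 to 1.037) and Ftl1 at 1.022 times (1.018 to 1.026), intervals that are narrow because even the smallest, Ftl1 in static cells, rests on an estimated 482621 fragments. Ratios were 1.024 (0.986 to 1.064) for Slc11a2, which moves iron out of endosomes, and 1.002 (0.978 to 1.028) for its paralogue Slc11a1, a metal transporter of macrophage phagosomes. Slc40a1, the gene for the exporter ferroportin, had a ratio of 0.991 (0.950 to 1.034) and Fbxl5, the iron-binding ubiquitin ligase subunit that marks IRP2 for degradation, 0.969 (0.893 to 1.051). The last 4 intervals include a ratio of 1.

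Folds of 1.2 and 2 were counted on the FPKM + 1 scale here and below, which understates the differences of genes with low FPKM. Of the 9 genes, 1 was at least 1.2-fold lower (Tfrc) and none at least 1.2-fold higher with shear, against 2.26% and 1.94% of the 10358 genes kept. Centred on the median gene or by length and GC content, the count was 0. None reached 2-fold in either direction, as 0.280% of all genes did. The median log2 ratio of the 9 was -0.013, beside -0.011 over all genes, with 4 of 9 higher, where 46.0% of all genes were.

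The 2 sheared libraries were compared next, Ift88 shRNA over control shRNA, which cannot separate hairpin effects that need flow from those that do not. Ncoa4 was lower with Ift88 shRNA, at 79.5 FPKM against 99.1, a ratio of 0.802 (0.780 to 0.825), and 1.47% of genes were lower still. Tfrc was lower as well, at 48.5 FPKM against 56.2, a ratio of 0.864 (0.838 to 0.890), where 4.11% of genes were lower. Slc40a1 (gene ID 53945, chromosome 1, 45908070 to 45926532) was higher, at 46.1 FPKM against 38.5, a ratio of 1.196 (1.149 to 1.246), with 3.70% of genes higher still. The uptake gene Tfrc and the export gene Slc40a1 stood on opposite sides of the sheared control in this library.

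The ferritin chains did not move alike in this comparison. Fth1 had a ratio of 0.881 (0.877 to 0.884) with Ift88 shRNA, with 5.43% of genes lower, while Ftl1 had a ratio of 0.997 (0.993 to 1.001). The heavy-to-light ratio of FPKM was 1.23 with Ift88 shRNA, 1.39 in the sheared control and 1.37 in the static library. Fth1 and Ftl1 have many processed pseudogene copies in the mouse genome, no such copy has a row of its own in the deposited table, and how reads shared with copies were handled is not given, so both levels are uncertain to that extent.

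Slc11a2 (gene ID 18174, chromosome 15, 100387898 to 100424209) was at 60.4 FPKM with Ift88 shRNA against 54.8 with control shRNA, the ratio being 1.101 (1.061 to 1.142). Slc11a1 (gene ID 18173, chromosome 1, 74375014 to 74386057) was at 167.6 FPKM against 166.2, a ratio of 1.009 (0.984 to 1.034), the nearest to equal of the transporters. Both sensing genes were slightly higher with Ift88 shRNA. Ireb2 was at 10.4 FPKM against 9.65, a ratio of 1.077 (1.011 to 1.147). Fbxl5 (gene ID 242960, chromosome 5, 43744618 to 43782149) was at 13.4 FPKM against 12.5, a ratio of 1.076 whose interval (0.993 to 1.167) includes 1.

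Of the 9 genes, 1 was at least 1.2-fold lower (Ncoa4) and none at least 1.2-fold higher with Ift88 shRNA, against 2.29% and 3.25% of genes kept. With equal library totals the count was 2, as Slc40a1 passed on the higher side. None reached 2-fold, as 0.145% of all genes did. The median log2 ratio of the 9 was 0.013, beside 0.010 over all genes, with 5 of 9 higher, where 53.6% of all genes were. Both comparisons use the sheared control library, so a deviation of that library would enter them with opposite signs.

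**Figure D2:**
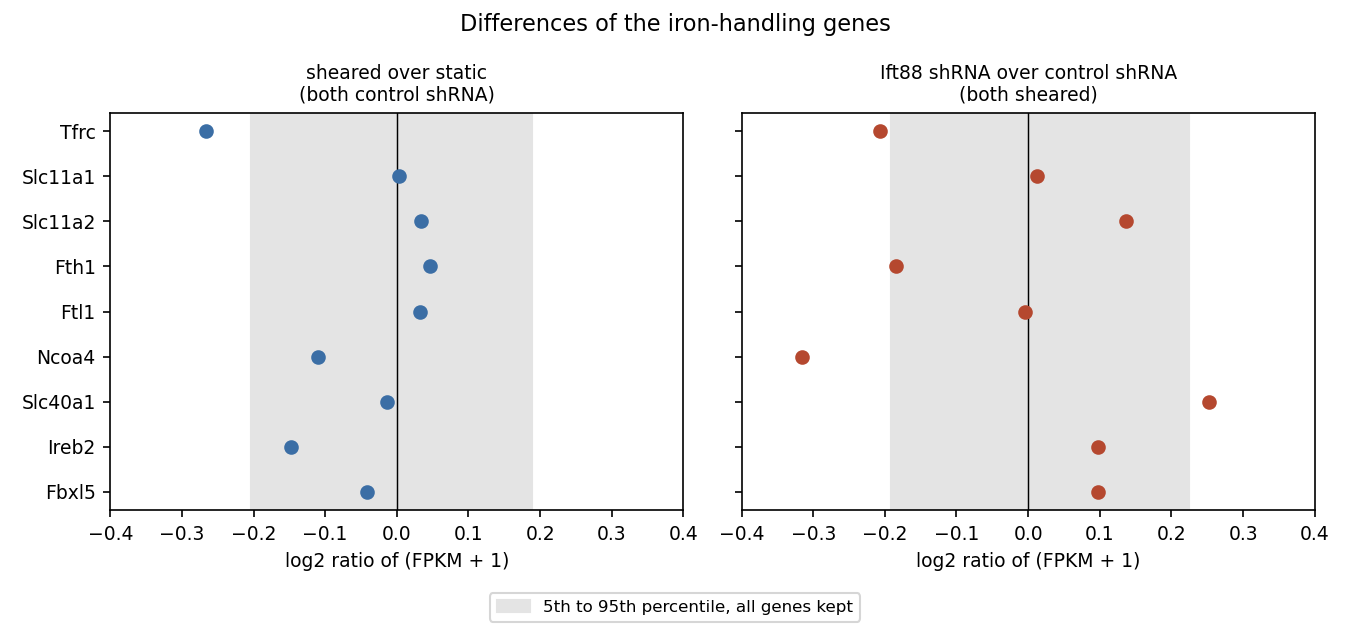
Log2 ratios of (FPKM + 1) for the 9 genes, 1 point per gene, for sheared over static control cells (left) and Ift88 shRNA over control shRNA in sheared cells (right), with the grey band covering the 5th to 95th percentile of the 10358 genes kept. Tfrc lies below the band in both panels (-0.27 and -0.21), and Ncoa4 (-0.32, below) and Slc40a1 (0.25, above) lie outside it on the right.

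Tfrc and Ncoa4 had their highest level in the static library and their lowest with Ift88 shRNA. They were picked here for that order, and the share of all genes with the same order was not counted. Sheared cells with Ift88 shRNA set against static control cells, which differ by flow and hairpin together, had ratios of 0.716 (0.696 to 0.737) for Tfrc and 0.743 (0.722 to 0.764) for Ncoa4. In that pairing 0.734% and 1.04% of genes were lower. The summed ferritin FPKM was 833 times that of Tfrc with Ift88 shRNA, 775 times in the sheared control and 624 times in the static library. The FPKM of Slc40a1 was 0.949, 0.685 and 0.573 times that of Tfrc in the same libraries. Tfrc, the member with the widest range, is the denominator of both ratios, so its own differences enter both. Summed ferritin itself was at 40449, 43528 and 42316 FPKM, lowest with Ift88 shRNA. Slc40a1 itself was at 46.1, 38.5 and 38.9 FPKM, nearly level between the sheared control and the static library.

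**Figure D3:**
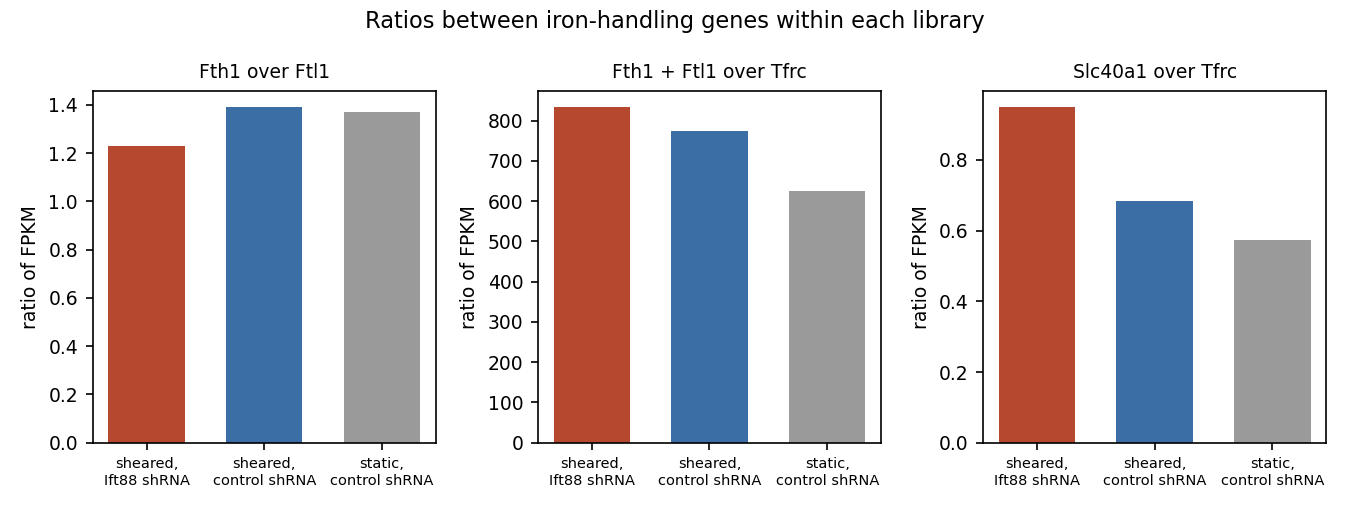
Ratios of FPKM within each library (vertical axes from 0), 1 library per bar, for Fth1 over Ftl1, for Fth1 plus Ftl1 over Tfrc, and for Slc40a1 over Tfrc. The heavy-to-light ratio is lowest with Ift88 shRNA (1.23), whereas ferritin over Tfrc (833) and Slc40a1 over Tfrc (0.949) are highest there and lowest in static cells (624 and 0.573). Tfrc differs between the libraries and enters both of these as denominator, while summed ferritin itself is lowest with Ift88 shRNA (40449 FPKM).

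Among 7548 other genes with a mean of at least 5 FPKM, those whose pair of log2 ratios lay nearest to that of Tfrc over the 3 libraries were Fgd4, Ctla2b and Nr1h3, at distances of 0.0383, 0.0401 and 0.0404. Fgd4, which encodes an exchange factor for the GTPase Cdc42, was at 8.29 FPKM with Ift88 shRNA, 9.45 in the sheared control and 11.5 in static cells. Nr1h3, the gene for the sterol receptor LXR alpha, was at 15.2, 18.1 and 21.6 FPKM. Ctla2b, at 8.24, 9.62 and 12.1 FPKM, has a near-identical neighbour, Ctla2a, and is uncertain.

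Related genes were grouped into lists of other iron transport, haem, mitochondrial iron, iron sensing, ferritin turnover and NRF2 target genes. NRF2, encoded by Nfe2l2, is a stress-activated transcription factor known to induce ferritin and haem oxygenase. Mitochondrial iron and iron-sulphur cluster genes were higher with shear in 23 of 27 members, with a median log2 ratio of 0.11, where 46.0% of all genes were higher. None passed 1.2-fold on the FPKM + 1 scale, where 1.94% of all genes were that much higher and 2.26% lower. The plain FPKM ratio did pass it for Iba57, at 1.221 (0.758 to 2.005), and Slc25a37, at 0.819 (0.741 to 0.904). The count of higher members was again 23 of 27 after centring by length and GC content. Its most abundant member, the mitochondrial chaperone gene Hspa9, was at 114 FPKM in sheared and 107 in static cells. Bola3 and Iscu, which serve in cluster assembly and were picked after their values were seen, were at 31.5 and 75.6 FPKM in sheared cells and 26.5 and 64.8 in static cells.

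Haem genes were split with shear, with 10 of 17 higher and a median of 0.03, beside the same 46.0% of all genes. Hmox1, which releases iron from haem, was at 396 FPKM in sheared and 337 in static cells, a ratio of 1.174 (1.150 to 1.199). Blvrb, a biliverdin reductase gene, and Slc48a1, a haem transporter gene of lysosomes, were at 245 and 204 FPKM in sheared cells and 210.1 and 177 in static cells. These last 2 were also picked after their values were seen. NRF2 targets outside iron handling were higher in 14 of 15 members (median 0.12). On the FPKM + 1 scale 1 of them passed 1.2-fold, beside 1.94% of all genes on the higher side. The plain FPKM ratio of Gclm also passed it, at 1.202 (1.162 to 1.244). The gene past it on both scales, Nqo1, was at 4.28 FPKM in sheared and 2.85 in static cells, a ratio of 1.501 (1.202 to 1.880), and the most abundant, Prdx1, at 1826 and 1764. Nfe2l2 itself had 170.0 FPKM in sheared and 192 in static cells, a ratio of 0.885 (0.864 to 0.905).

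The remaining lists had medians near 0 in the shear comparison, in which 46.0% of all genes were higher and the median over all genes was -0.011. Other iron transport and reduction genes were higher in 10 of 17 members (median 0.02), or 8 with equal library totals and 11 once centred by length and GC content. The most abundant, the endosomal sorting gene Snx3, was at 191 and 188 FPKM in sheared and static cells, and the RNA-binding iron chaperone homologue Pcbp4 was at 2.18 and 1.64, a ratio of 1.33 (1.03 to 1.74). Iron sensing genes were higher in 5 of 18 and lower in 13 (median -0.03), or 9 of 18 higher once centred by length and GC content. Ferritin turnover and ferroptosis genes were higher in 6 of 14 and lower in 8 (median -0.007), with the autophagy gene Gabarap at 604 and 588 FPKM.

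With Ift88 shRNA, NRF2 targets were higher than in the sheared control in 12 of 15 members (median 0.08), where 53.6% of all genes were. The 3 lower members, Prdx1, Txn1 and Taldo1, were the most abundant of the list, and its summed FPKM was 3011 against 3107. The cystine transporter gene Slc7a11 was the 1 NRF2 target past 1.2-fold on the FPKM + 1 scale, at 5.14 FPKM against 3.98, a ratio of 1.291 (1.199 to 1.391). Over all genes 3.25% were at least 1.2-fold higher on that scale and 2.29% lower. Ferritin turnover and ferroptosis genes were higher in 2 of 14 and lower in 12 (median -0.04), and none passed 1.2-fold on that scale. The other lists were higher in 7 of 17 (transport, median -0.03), 7 of 17 (haem, -0.04), 12 of 27 (mitochondrial, -0.02) and 6 of 18 members (sensing, -0.02), beside the same 53.6% of all genes. None of these passed 1.2-fold on the FPKM + 1 scale, although the plain FPKM ratio of Hp was 0.784 (0.492 to 1.239). Hmox1 was at 360 FPKM with Ift88 shRNA against 396, a ratio of 0.910 (0.891 to 0.929).

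**Figure D4:**
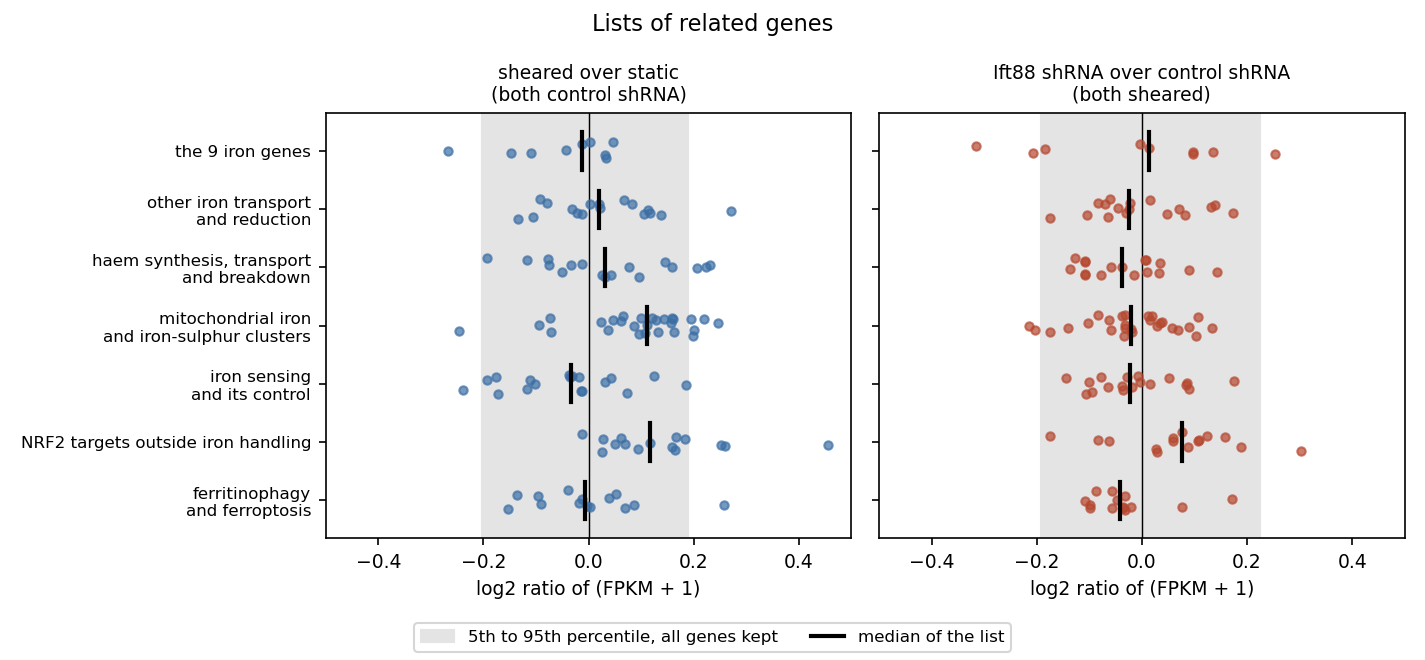
Log2 ratios of (FPKM + 1) of the 9 iron genes and of 6 lists of related genes, 1 point per gene with a mean of at least 1 FPKM, for sheared over static control cells (left) and Ift88 shRNA over control shRNA in sheared cells (right). Black bars are list medians and the grey band is the 5th to 95th percentile of all genes kept; the mitochondrial and NRF2 lists have the highest medians on the left (0.11 and 0.12).

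Markers of cell state and of other cells also differed between the libraries. Summed osteoclast markers (11 genes) were at 413 FPKM with Ift88 shRNA, 339 in the sheared control and 445 in the static library, with 1 of the 8 kept higher and 7 lower with shear, and 7 of 8 higher with Ift88 shRNA. Over all genes 46.0% were higher with shear and 53.6% with Ift88 shRNA. Of these markers Acp5 was at 83.0, 52.9 and 97.7 FPKM, Mmp9 at 85.5, 39.3 and 70.3, and Ctsk at 18.5, 12.6 and 29.4. Among the 8 kept, Acp5, Mmp9 and Ctsk had the lowest ratios of sheared over static FPKM. Itgb3 was the 1 higher with shear, at 8.116, 7.084 and 5.360 FPKM. Smaller falls with shear were found for Dcstamp, at 7.266, 3.673 and 5.211 FPKM, and Nfatc1, at 16.88, 15.25 and 16.23. Tnfrsf11a also fell less, at 10.68, 8.404 and 8.644 FPKM. Atp6v0d2, the most abundant, was at 182, 199 and 211 FPKM and was the 1 of 8 lower with Ift88 shRNA. The late markers Calcr and Oscar reached at most 0.117 and 0.418 FPKM. Summed macrophage markers (8 genes) were at 2342, 2339 and 2371 FPKM, most of it from Cd68, at 1783, 1799 and 1787 FPKM. With shear 6 of the 8 were lower and 2 higher, with a median log2 ratio of -0.196 beside -0.011 over all genes. The 3 at least 1.2-fold lower were C1qa, C1qb and Fcgr1, against 2.26% of all genes. Neutrophil markers (9 genes) summed to 37.1, 35.2 and 68.5 FPKM, and stromal markers (8 genes) to 9.82, 7.62 and 10.2 FPKM. All 4 neutrophil and all 4 stromal markers kept were lower with shear. With Ift88 shRNA 3 of 4 neutrophil, 4 of 4 stromal and 3 of 8 macrophage markers were higher, beside 53.6% of all genes. The part of these differences in the iron gene values was not tested. Of 11 erythroid markers, whose cells are rich in Tfrc, 7 were at 0 in all libraries, and the list summed to at most 0.105 FPKM. The iron-recycling macrophage list of 6 genes, which includes Slc40a1 and Hmox1, did not move together. Of its 4 genes kept, 1 was higher with shear and 3 lower. With Ift88 shRNA 2 were higher (Slc40a1 and Spic) and 2 lower (Hmox1 and Axl). Spic was at 6.79 FPKM with Ift88 shRNA, 5.70 in the sheared control and 5.96 in static cells. Axl was at 3.72, 3.75 and 4.07 FPKM in the same libraries, and the list's member Cd163 reached at most 0.755 FPKM.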

How the data were processed

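Per the labels' protocols, TRIzol RNA was made into libraries with the TruSeq mRNA kit from Illumina, a polyadenylated RNA selection. The deposited values are FPKM per gene in 1 table. Cufflinks 2.2.1, TopHat2 2.0.13, Trimmomatic 0.32, bcl2fastq 1.8.4 and the build mm10 are named in the submitters' processing notes, with settings and strand not given in the sources used here. FPKM is a share of the library, so a difference in abundant genes such as ferritin moves the others.

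Fragments were estimated from the step between low FPKM values (up to 10 fragments, 1 transcript of at least 1000 bases, length less 190 bases). Of these values 62.5% to 64.0% were whole within 0.1, so no count model was used. Fragments of a gene were taken over its shortest linked transcript. For genes with several transcripts they may be too low and the intervals too wide. Ratios of FPKM carry 95% Clopper-Pearson intervals, and levels in plots exact Poisson ones, both for counting error only. Log2 ratios used a pseudocount of 1, and genes with a mean below 1 FPKM were left out. Folds of 1.2 and 2, counted on the FPKM + 1 scale, describe size and are not tests. Lengths and GC content came from GENCODE M21 transcripts linked to the deposited RefSeq IDs (99.1% of genes kept). Coordinates came from RefSeq on GRCm38, matched by gene ID for all 9 genes. Calculations used Python 3.11.15, pandas 2.3.3 and scipy 1.17.1. Ratios and their intervals were tested on simulated counts of known depth, and the search for elements on planted sequences. The estimate of fragments from FPKM was not tested in this way.

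The members and lists were chosen with earlier results of these data known. The text names all 9 members, Ift88, and the 3 genes nearest to the member with the widest range. From each list of related genes it names the most abundant gene and those past 1.2-fold on the FPKM + 1 scale. Cell type markers and other list genes named in the text fall outside this rule.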

Additional observations from a re-analysis of the deposited data

How the results depend on the processing

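The 6 alternatives were a pseudocount of 0.1, no filter, a mean of at least 5 FPKM, equal library totals, centring on the median gene, and centring by length and GC content. The count of iron genes past 1.2-fold with shear was 0, in place of 1, both when centred on the median gene and when centred by length and GC content, since Tfrc (log2 -0.26 and -0.18) then missed the threshold. With Ift88 shRNA it was 2, in place of 1, with equal library totals. Under each alternative the counts past 2-fold were 0 and both medians moved by less than the median half-width of the members' counting intervals. Of 18 member ratios, 13 kept their sign throughout and 5 did not: Slc11a1, Ftl1, Slc40a1 and Fbxl5 with shear (-0.02 to 0.01, -0.07 to 0.04, -0.03 to 0.04 and -0.06 to 0.01) and Ftl1 with Ift88 shRNA (-0.02 to 0.02). List medians were also recomputed with equal totals and with length and GC centring, alternatives chosen after seeing the data. Where the main median was past 0.05 in size, none changed sign. Some smaller medians did. The sensing list ranged from -0.051 to 0.003 with shear and from -0.037 to 0.004 with Ift88 shRNA, and ferritin turnover from -0.026 to 0.001 with shear. Other iron transport ranged from -0.000 to 0.027 with shear, with 8 to 11 of its 17 members higher. Summing ferritin with its copies gave no value, as no copy has a row. No paired analysis was possible because each group has 1 library. Depth limits the least abundant members most, and bounds no variation between cultures.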

Other observations

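Lcn2 and Ltf, which encode iron-sequestering proteins of neutrophil granules, lay below the expression filter and were named after their values were seen. Lcn2 was at 0.803 FPKM with Ift88 shRNA, 0.549 in the sheared control and 1.64 in the static library. Ltf was at 0.344, 0.431 and 1.23 FPKM in the same libraries. Both were highest in the static library, as was the neutrophil calprotectin gene S100a9, at 8.38, 6.66 and 22.3 FPKM.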
